A study of Mus musculus with 10 samples.

Results

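The 5 dopamine receptor genes (Drd1 to Drd5) and the 4 adenosine receptor genes (Adora1, Adora2a, Adora2b and Adora3) of the mouse were followed in the back wall of the eye. They were taken by gene name and make up 9 of the 26360 genes listed. Retinal pigment epithelium (RPE) with choroid and sclera, as the labels call the tissue, came from 5 wild-type C57BL/6J mice at postnatal day 34, with 1 total RNA library from each left eye (n = 5) and 1 from each right eye (n = 5). Each mouse had been anaesthetised with ketamine and xylazine at postnatal day 24 and had then worn a goggle with a -20 D lens, which induces myopia, on 1 eye for 10 days, while its other eye had no lens. The labels name the side of each eye but not the side of the lens, so left and right eyes are compared without a treatment meaning, and a lens effect that fell on different sides in different animals would cancel. The extraction protocol in the labels speaks of retinae although the tissue is labelled as RPE, choroid and sclera.

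Dopamine is released in the eye by amacrine cells of the retina and is widely studied as a retinal signal that slows eye growth. Its receptors fall into a D1-like pair (Drd1, Drd5), which couple to stimulatory G proteins and raise cyclic AMP, and a D2-like trio (Drd2, Drd3, Drd4), which couple to inhibitory G proteins and lower it. Adenosine is formed outside cells from released ATP. Of its receptors those encoded by Adora1 and Adora3 lower cyclic AMP and those of Adora2a and Adora2b raise it, and the adenosine receptor antagonist 7-methylxanthine has been studied as a treatment of myopia.

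The adenosine receptors Adora1 and Adora2b had the most RNA of the 9 per length of exon, and Drd4, Adora2a and Drd1 came next. Drd4, Drd1 and Drd2 differed several-fold between libraries, with the highest values of each in the right eye of animal 68, the library with the most RNA of rod photoreceptors. No receptor gene passed an adjusted p of 0.05 in limma, either between right and left eyes or between animals.

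Library totals implied by the steps between low values were 66.9 to 94.3 M reads (M, mega), and a gene needed 0.0318 to 0.0448 CPM (counts scaled to the library's total) to reach 3 reads. The labelled tissue was well represented, with 6240 to 8430 CPM over 12 RPE genes, led by Rgr and Ttr, and 6320 to 9260 CPM over 8 genes of scleral fibroblasts, led by Col1a2 and Col1a1. Retinal RNA was present to a varying degree. The 12 rod genes, Gnat1 among them, summed to between 212 and 887 CPM (left eyes) or 132 and 1870 CPM (right eyes), and all 12 were highest in the right eye of animal 68. In that library 7 of 8 cone genes and 9 of 14 genes of inner retinal neurons were at their highest as well, beside 13.1% of all 26360 genes. Other retinal lists did not go along, with 0 of 6 genes of Muller glia and 1 of 4 of dopaminergic amacrine cells highest there. The Muller glia genes summed to 2030 CPM in it, the lowest of the 10 libraries. By its rod and cone genes the right eye of animal 68 stood apart from the other 9 libraries. Some results that rest on it are given with and without it, others only with it.

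Per length of exon, the order of the medians over 10 libraries was Adora1, Adora2b, Drd4, Adora2a, Drd1, Drd2, Adora3, Drd3 and Drd5. Adora1 stood at 4.44 to 6.51 CPM per kb (median 5.20) and Adora2b at 4.32 to 5.49 CPM per kb (median 4.97), and their ranges overlapped. Every library had more Adora2b than Drd4 per kb, and this was the only step in the order where the ranges of neighbours did not overlap. Drd4 (median 0.318 CPM per kb), Adora2a (0.277) and Drd1 (0.264) were not ordered beyond their spread, since Drd4 was above Adora2a in 6 of 10 libraries and Adora2a above Drd1 in 3 of 10. Drd2 (median 0.0484 CPM per kb) and Adora3 (0.0296) followed, and Drd3 (0.00350) and Drd5 (0) were at the limit of detection. The plot of CPM per kb shows the gap below Adora2b and the wide spread of the dopamine receptors.

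**Figure D1:**
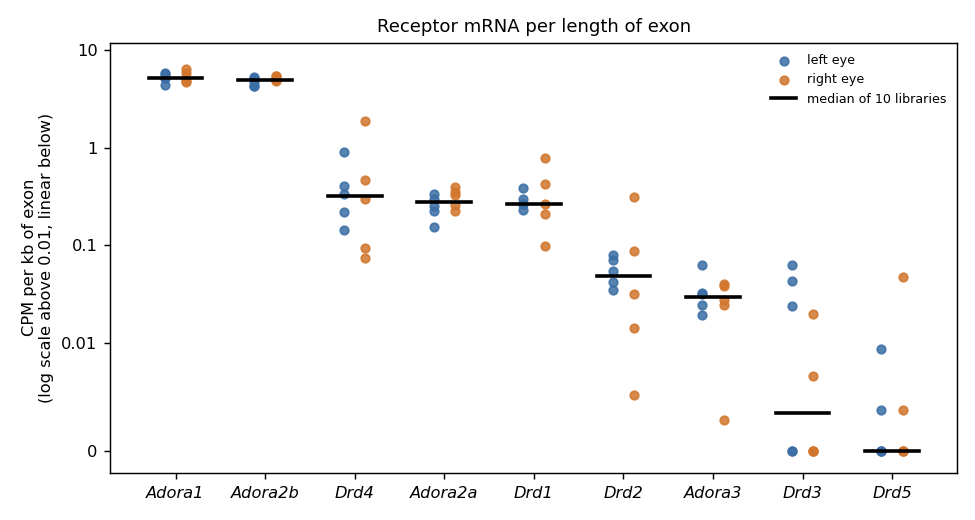
CPM per kb of exon (vertical axis, log scale above 0.01 and linear below) of the 9 receptor genes (horizontal axis, in the order of their medians) in 5 left-eye and 5 right-eye libraries, with a bar at the median of all 10. Adora1 and Adora2b lie between 4.32 and 6.51 CPM per kb, above every value of the other 7 genes, of which the highest is 1.90 CPM per kb for Drd4.

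Drd4 encodes the D4 receptor, which in the mouse retina is known from photoreceptors. The gene (ENSMUSG00000025496.5) lies on chromosome 7, 141292006 to 141296464, plus strand, GRCm38, with 4 coding exons. In animals 61, 64, 65, 66 and 68, in that order here and for the genes that follow, Drd4 was at 0.487, 1.13, 3.04, 1.38 and 0.743 CPM in left eyes. In right eyes it was at 0.319, 1.60, 1.02, 0.251 and 6.41 CPM. The right eyes thus held both the highest and the lowest value, 25.5-fold apart and resting on 604 and 22 implied reads, and the groups overlapped.

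Drd1 encodes the D1 receptor, in the retina a receptor of bipolar, horizontal and some amacrine cells. It (ENSMUSG00000021478.6) lies on chromosome 13, 54051183 to 54055705, minus strand, with its coding sequence in 1 exon. Left eyes held 0.838, 1.09, 1.40, 0.957 and 0.956 CPM of Drd1, and right eyes held 0.958, 1.53, 0.766, 0.354 and 2.86 CPM. The right eye of animal 68 was 2.99-fold above the median of the other 9 libraries, and the remaining right eyes lay on both sides of the left ones.

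Drd5, the other D1-like gene (ENSMUSG00000039358.3, chromosome 5, 38319367 to 38322518, plus strand, 1 exon), was listed at 0 in 6 libraries and reached more than 3 reads in 1. That library was the right eye of animal 68, with 14 reads (0.149 CPM), while 3 others held 1 or 2 reads. Of the exon bases of Drd5, 48.6% are shared with the annotated gene Gm26560 on the opposite strand, so that its few reads could be told from those of that gene only if counting used strand, and whether it did is not stated by the sources used.

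Drd2 encodes the D2 receptor, which is the autoreceptor of dopaminergic amacrine cells (ENSMUSG00000032259.8, chromosome 9, 49340627 to 49408177, plus strand, 7 coding exons). Left eyes held 0.108, 0.138, 0.179, 0.0897 and 0.202 CPM of Drd2. Right eyes held 0.0133, 0.221, 0.0359, 0.0799 and 0.796 CPM, from 1 read in animal 61 to 75 reads in animal 68. The right eyes spread to both sides of the left ones, and 8 of 10 libraries had more than 3 reads.

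Drd3 encodes the D3 receptor, known mainly from the limbic forebrain (ENSMUSG00000022705.5, chromosome 16, 43754026 to 43822932, plus strand). It was listed at 0 in 5 libraries, and only the left eyes of animals 65 (9 reads, 0.107 CPM) and 68 (7 reads, 0.0743 CPM) held more than 3 reads. Unlike the other 4 dopamine receptor genes it was at 0 in the right eye of animal 68, and 23 reads in all are too few to order the libraries.

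Among these genes Drd4 followed the rod RNA most closely. With the libraries ranked by the summed CPM of the 12 rod genes, the same 3 libraries, in the same order, led in Drd4: the right eye of animal 68 (1870 CPM of rod genes), the left eye of animal 65 (887 CPM) and the right eye of animal 64 (583 CPM). In 5 of 5 animals Drd4 was higher in the eye with more rod RNA. While the rod sum differed 14.1-fold between libraries, Drd4 stood at 1.71 to 3.58 CPM per 1000 CPM of rod genes, a 2.09-fold range. The correlation of log2 values between Drd4 and the mean of the rod list was 0.99 over 10 libraries and, with the right eye of animal 68 left out, 0.98. Of 12876 other protein-coding genes, 26 (0.202%) reached a correlation with the rod mean as high as that of Drd4, and the median gene was at -0.22. These points share animals in pairs and are shares of 1 total per library, so the values are descriptions. In bulk tissue, fewer cells of a type and less RNA per cell cannot be told apart.

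Drd2 was also higher in the eye with more rod RNA in 5 of 5 animals, and Drd1 in 4 of 5. The count for Drd2 rests on few reads. In animal 66 it had 6 reads on the left (0.0897 CPM) and 7 on the right (0.0799 CPM). The right eyes of animals 61 and 65 held 1 and 3 reads of it. Their correlations with the rod mean were 0.86 for Drd2 and 0.88 for Drd1 over 10 libraries, levels that 2.61% and 2.25% of the 12876 other genes reached. With the right eye of animal 68 left out the correlations of Drd2 and Drd1 were 0.68 and 0.75, and the share of genes reaching these was not counted. For Drd5 and Drd3, at the limit of detection, the correlations were 0.76 and -0.01, and 0.37 and 0.26 without that eye. Drd2 and Drd1 were both less proportional to the rod RNA than Drd4 was. Drd1 stood at 1.53 to 7.23 CPM per 1000 CPM of rod genes, and the right eye of animal 61, with the least rod RNA (132 CPM), held 0.958 CPM of Drd1. Of the 14 markers of inner retinal neurons, where Drd1 and Drd2 are known to act, 10 were above and 4 below the median of the other 9 libraries in the right eye of animal 68. Their sum ranged from 281 CPM in the right to 432 CPM in the left eye of animal 66. It was led by Trpm1, a channel gene that melanocytes also use, and by Slc6a9, a glycine transporter gene, and in the right eye of animal 68 these were at 217 and 47.3 CPM against medians of 247 and 55.1 CPM in the others. Chosen after their values were seen, Grm6, the glutamate receptor of ON bipolar cells, was at 1.82 CPM in the right eye of animal 68 against a median of 0.209 CPM in the other 9 libraries, and Gad1, an enzyme of GABA synthesis, at 8.15 against 1.05 CPM. The part of rods and inner retinal neurons in the levels of Drd1, Drd2 and Drd4 was not tested.

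For the adenosine receptors the correlations with the rod mean were below 0, at -0.57 for Adora1, -0.53 for Adora2b, -0.09 for Adora2a and -0.43 for Adora3. With the right eye of animal 68 left out they were -0.55, -0.66, -0.49 and 0.15, so the sign for Adora3 rested on that library. Adora2a was higher in the eye with more rod RNA in 3 of 5 animals, and Adora1, Adora2b and Adora3 each in 2 of 5. The plot of receptor CPM against rod RNA shows Drd4 along a rising line and Adora1 and Adora2b on level bands.

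**Figure D2:**
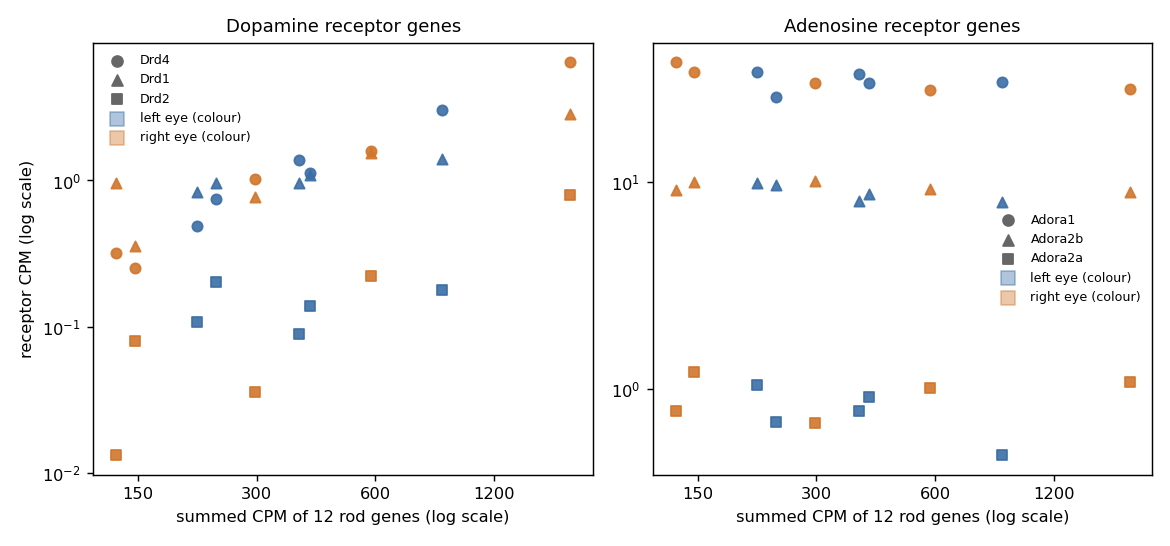
Receptor CPM (vertical axis, log scale) against the summed CPM of 12 rod genes (horizontal axis, log scale) in 10 libraries, with dopamine receptor genes on the left, adenosine receptor genes on the right, marker shape for the gene and colour for the eye. Drd4 rises from 0.251 to 6.41 CPM over the range of rod RNA, whereas Adora1 stays between 25.7 and 37.6 CPM and Adora2b between 7.96 and 10.1 CPM.

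The genes most like each receptor gene were sought among 12888 protein-coding genes by the Pearson correlation of log2 values over the 10 libraries. For Drd4 they included Wdr17 (r = 0.997) and Slc12a5 (0.995), whose correlations were 0.994 and 0.991 over the other 9 libraries without the right eye of animal 68. For Drd1 they were Gramd2 (r = 0.974), Susd4 (0.951) and Pclo (0.949). The closest genes to Adora1 were Prr5l (r = 0.939), Elf1 (0.936) and Zfr (0.935), and those to Adora2b were Srp54c (0.902), Pcp4l1 (0.894) and Emc2 (0.892). These genes were picked as the top 3 of 12888 correlations for each receptor gene, so their values are descriptions.

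The sequences ahead of the start sites of Drd4 and Drd1, whose log2 values correlated at 0.88 over the 10 libraries (0.76 over the other 9 without the right eye of animal 68), are shown with those of Adora1 and Adora2b, whose RNA was even. RefSeq's promoter table (GRCm38.p6) held 8 of the 9 genes, all but Adora2a. Each window runs from 250 to 51 bases before the RefSeq start, 5′ to 3′ on the gene's strand, and capitals mark the GC box, GGGCGG or its reverse complement CCGCCC. The windows are chr7:141291768-141291967 (plus strand) for Drd4, chr13:54055709-54055908 (minus strand) for Drd1, chr1:134235508-134235707 (minus strand) for Adora1 and chr11:62248734-62248933 (plus strand) for Adora2b. For Drd1 and Adora1, which have 2 starts in that table, the upstream one is shown.
Drd4: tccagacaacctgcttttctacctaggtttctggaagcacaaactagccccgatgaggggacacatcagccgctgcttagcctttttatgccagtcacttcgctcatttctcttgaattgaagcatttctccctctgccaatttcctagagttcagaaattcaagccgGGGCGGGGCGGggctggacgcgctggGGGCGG
Drd1: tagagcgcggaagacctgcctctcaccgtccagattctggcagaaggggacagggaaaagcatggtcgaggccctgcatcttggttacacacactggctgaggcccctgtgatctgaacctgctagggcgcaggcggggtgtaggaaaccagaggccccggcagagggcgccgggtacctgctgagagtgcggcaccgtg
Adora1: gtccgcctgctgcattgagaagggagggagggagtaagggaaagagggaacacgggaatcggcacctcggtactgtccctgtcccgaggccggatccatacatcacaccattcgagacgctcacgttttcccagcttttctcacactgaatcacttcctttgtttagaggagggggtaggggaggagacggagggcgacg
Adora2b: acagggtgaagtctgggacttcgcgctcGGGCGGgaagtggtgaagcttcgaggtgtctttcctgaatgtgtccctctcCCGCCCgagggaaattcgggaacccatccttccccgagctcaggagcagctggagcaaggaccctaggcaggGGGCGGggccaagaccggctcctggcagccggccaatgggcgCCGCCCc
Drd4 held 3 GC boxes, of which a pair share a base, and Adora2b held 4, while the windows shown for Drd1 and Adora1 held 0. The window of the other start of Drd1 (chr13:54054831-54055030) held 1, and that of Adora1 held 0. A GC box was present on either strand in 24.6% of 32851 windows of this length. The core motif of the photoreceptor factor CRX, TAATCC or GGATTA, was in 5.22% of all windows and in 0 of the 4 shown. Neither motif overlaps the other in these windows. These counts say only which letters are in the windows.

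Adora1 encodes the A1 receptor, the high-affinity adenosine receptor that lowers cyclic AMP (ENSMUSG00000042429.8, chromosome 1, 134199223 to 134235431, minus strand, 2 coding exons). Left eyes held 33.7, 30.0, 30.2, 33.1 and 25.7 CPM of Adora1, and right eyes held 37.6, 27.6, 29.9, 33.9 and 28.1 CPM. Every library was within a 1.46-fold range, resting on 2005 to 2971 reads, and left and right eyes overlapped. Of its exon bases, 20.1% are shared with Mybph on the opposite strand, which was listed at a mean of 0.838 CPM.

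Adora2b encodes a low-affinity receptor that responds when adenosine is high, as in hypoxia (ENSMUSG00000018500.2, chromosome 11, 62248984 to 62266453, plus strand, 2 coding exons). Left eyes held 9.80, 8.66, 7.96, 8.01 and 9.64 CPM of Adora2b, and right eyes held 9.12, 9.23, 10.1, 9.98 and 8.88 CPM. It was the most even of the 9 genes, with a range of 1.27-fold, and neither eye side stood apart.

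Adora2a encodes a receptor known from blood vessels and leukocytes (ENSMUSG00000020178.6, chromosome 10, 75316877 to 75334784, plus strand). Left eyes held 1.04, 0.913, 0.478, 0.777 and 0.690 CPM of Adora2a, and right eyes held 0.785, 1.01, 0.682, 1.21 and 1.08 CPM. The right eye was higher in 4 of 5 animals, and the groups overlapped over most of their range. The 10 endothelial markers, led by Kdr and Emcn, summed to between 389 and 423 CPM (left) or 356 and 477 CPM (right), with the lowest sum in the right eye of animal 68. The part of endothelium in the level of Adora2a was not tested.

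Adora3 encodes the A3 receptor, in the mouse known above all from mast cells (ENSMUSG00000000562.5, chromosome 3, 105870858 to 105908926, plus strand). Left eyes held 0.122, 0.235, 0.0716, 0.118 and 0.0910 CPM of Adora3, and right eyes held 0.0902, 0.151, 0.144, 0.103 and 0.0106 CPM. These were 1 to 17 reads per library, and the right eye of animal 68, the highest library for 4 dopamine receptor genes, was the lowest here with 1 read. The 9 mast cell markers, led by Kit, which melanocytes also use, and Tpsb2, a tryptase of mast cells, summed to between 21.8 and 27.9 CPM (left) or 21.1 and 27.4 CPM (right). The sum, most of it Kit, was lowest in the right eye of animal 68, where 7 of the 9 markers were below and 2 above the median of the other 9 libraries. The part of mast cells in the level of Adora3 was not tested. Of the exon bases of Adora3, 20.9% are shared with Tmigd3 on the same strand, and how many of its reads fell on them was not examined.

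**Figure D3:**
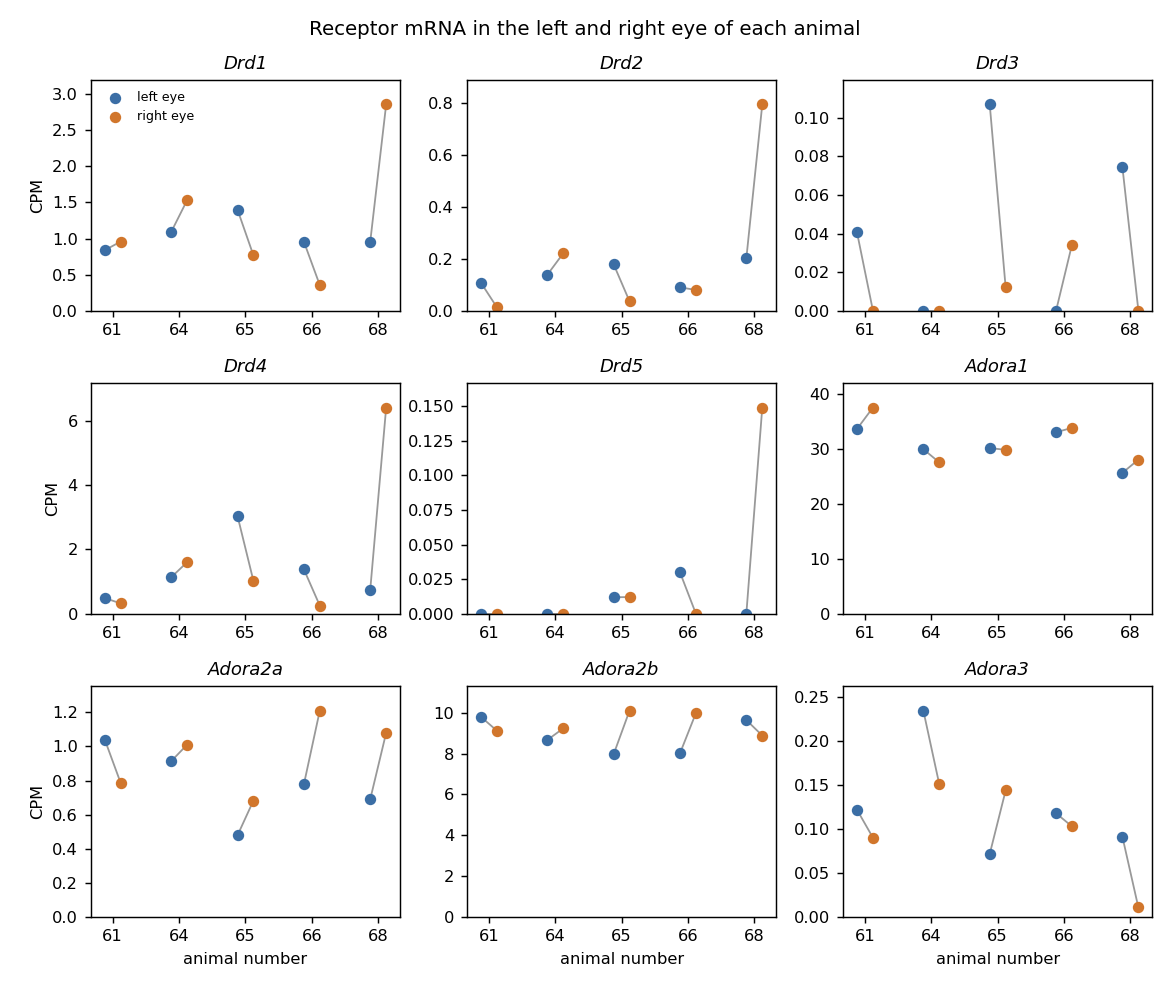
CPM (vertical axes, each starting at 0) of the 9 receptor genes in the left and right eye of each of 5 animals (horizontal axes), with a line joining fellow eyes. The right eye of animal 68 is the highest point for Drd1, Drd2, Drd4 and Drd5, at 2.86, 0.796, 6.41 and 0.149 CPM, and the lines of each gene slope both ways or lie flat.

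The comparison of fellow eyes, right against left, called none of the receptor genes. It was made in limma on log2(CPM + 0.230) with the animal as a block, over the 15414 genes whose mean reached 1 CPM, among them Drd1, Drd4, Adora1 and Adora2b. The other 5 receptor genes were read from the same fit with no minimum (26360 genes). In limma 0 of 15414 genes passed an adjusted p of 0.05 (0% called), and 430 (2.79%) had an unadjusted p under 0.05, 124 of them (0.804%) higher and 306 (1.99%) lower in the right eye. In the fit with no minimum 0 of 26360 passed (0% called) and 861 (3.27%) had an unadjusted p under 0.05, 280 (1.06%) higher and 581 (2.2%) lower. None of the 9 receptor genes had an unadjusted p under 0.05 in the fit it was read from. On this scale a log2 difference understates the change of low genes.

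The standard errors were smallest for Adora1 and Adora2b and largest for Drd4 among the 9 genes. The mean of Adora1 was 30.5 ± 3.16 CPM on the left and 31.4 ± 4.27 CPM on the right (SD, n = 5 per side), and the difference of 0.04 ± 0.06 (log2, SE) had a 95% interval from a fold of 0.940 to 1.13 (limma adjusted p = 0.9998). Adora2b was at 8.82 ± 0.873 and 9.47 ± 0.552 CPM, with a difference of 0.10 ± 0.09 (log2, SE) and an interval from 0.927 to 1.25-fold (limma adjusted p = 0.9998). Drd1 was at 1.05 ± 0.215 and 1.29 ± 0.974 CPM, with a log2 difference of 0.04 ± 0.34 and an interval from 0.590 to 1.79-fold. Drd4 was at 1.36 ± 1.00 and 1.92 ± 2.57 CPM, with a log2 difference of -0.06 ± 0.61 and an interval from 0.356 to 2.57-fold, an interval that includes 2-fold changes in both directions.

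The signs of the estimates for the dopamine receptor genes other than Drd3 depended on single animals. Leaving out animal 61, 65 or 66 gave 0.02, 0.27 or 0.35 for Drd4, leaving out animal 64 gave -0.05 for Drd1, and leaving out animal 68 gave -0.04 for Drd5. Without animal 68 the log2 difference of Drd4 was -0.77 ± 0.37 (SE, limma adjusted p = 0.9416), that of Drd1 -0.29 ± 0.28 (limma adjusted p = 0.9566) and that of Drd2 -0.21 ± 0.18 (limma adjusted p = 0.9357), each estimate below 0. Without the right eye of that animal the mean of the right eyes was 0.797 in place of 1.92 CPM for Drd4, 0.902 in place of 1.29 CPM for Drd1 and 0.0874 in place of 0.229 CPM for Drd2. With the mean of the rod list as a covariate, which left 3 residual degrees of freedom, the SE of Drd4 was 0.15 in place of 0.61 and its difference was -0.05. The SE of Drd1 was then 0.16 in place of 0.34, whereas that of Adora1 was 0.06 in both fits. The mean of the inner retinal neuron list as the covariate gave SEs of 0.13 for Drd4, 0.15 for Drd1 and 0.06 for Adora1. The rod list was thus not alone in giving a smaller SE, but no list of cells outside the retina was fitted. Since Drd4 and the rod mean correlated at 0.99, its smaller SE restates that correlation.

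For the 5 receptor genes under the minimum the exact permutation p values are descriptions. Sign flips of 5 animals allow none below 0.0625, so no gene could pass 0.05 by them. The mean of Adora2a was 0.780 ± 0.215 CPM on the left and 0.953 ± 0.216 CPM on the right (SD, n = 5 per side), and they differed on the log2 scale by 0.24 ± 0.18 (SE), with an exact permutation p of 0.188 over sign flips within the 5 animals, two-sided. Drd2 differed by 0.08 ± 0.26 on the log2 scale (exact permutation p = 0.875) and Adora3 by -0.12 ± 0.13 (exact permutation p = 0.375). For Drd3 (-0.18 ± 0.12, exact permutation p = 0.25) and Drd5 (0.11 ± 0.14, exact permutation p = 0.75) only 2 and 1 of 10 libraries had more than 3 reads, and no fold is given. Adjusted over all genes in limma, each of the 5 was at 0.9999.

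**Figure D4:**
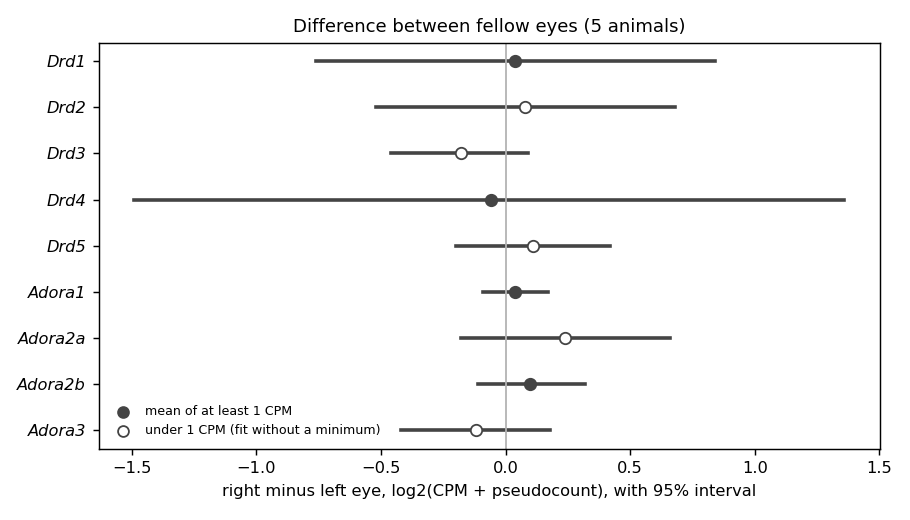
Difference between right and left eyes (horizontal axis, log2 scale of CPM plus a pseudocount) of the 9 receptor genes (vertical axis), with points for the limma estimate over 5 animals and lines for its 95% interval, and open points for the 5 genes under a mean of 1 CPM. All 9 intervals include 0, and they run from -0.09 to 0.17 for Adora1 to -1.49 to 1.36 for Drd4.

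The second comparison asked whether the 5 animals differed beyond the spread between fellow eyes, by limma's moderated F test with eye side in the model. Over all genes 13 of 15414 (0.0843%) passed an adjusted p of 0.05 and 1113 (7.22%) had an unadjusted p under 0.05. None of the receptor genes passed. Adora1 had the smallest p of the 4 genes tested (F = 7.04, unadjusted p = 0.0123, limma adjusted p = 0.546), with 33.7 and 37.6 CPM in the eyes of animal 61 against 25.7 and 28.1 CPM in those of animal 68. Adora2b had an F of 0.119 (limma adjusted p = 0.988), since its fellow eyes differed more than the animals did. Drd1 (F = 1.41, limma adjusted p = 0.798) and Drd4 (F = 1.52, limma adjusted p = 0.789) were not shown to vary more between animals than within them. Their fellow eyes differed most in animal 68, whose left eye held 0.743 and whose right eye held 6.41 CPM of Drd4. Without animal 68 the F was 1.72 for Drd1 (limma adjusted p = 0.828) and 4.36 for Drd4 (limma adjusted p = 0.767). In the fit with no minimum, where 13 of 26360 genes (0.0493%) were called and 1568 (5.95%) had an unadjusted p under 0.05, the smallest unadjusted p of the other 5 was 0.099 for Drd2.

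The genes around these receptors were read from 6 lists of 99 genes in all, of which 82 had a mean of at least 1 CPM. By limma 0 of the 82 were higher and 0 were lower in the right eye past an adjusted p of 0.05. An unadjusted p under 0.05 was seen for 4 of the 82 (1 higher, 3 lower), beside 2.79% of all 15414 genes tested (0.804% higher, 1.99% lower). The 82 genes' median log2 difference was -0.01, as was that of all genes tested. Th, the rate-limiting enzyme of dopamine synthesis, had little RNA, at 0.0138 to 0.361 CPM, and was highest in the right eye of animal 68. Slc6a3, the dopamine transporter, was at 0 to 0.168 CPM. By contrast Ddc, the decarboxylase that makes dopamine from L-DOPA, was at 3.50 to 5.18 CPM, and Slc18a2, the vesicular monoamine transporter, at 3.08 to 5.51 CPM. Pts, which with Gch1 and Spr makes the tetrahydrobiopterin cofactor of Th, was at 17.3 to 22.6 CPM. Of the 11 genes tested in this list 4 had estimates above 0 and 7 below, between -0.19 and 0.15.

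Of 25 genes that form, move or remove adenosine, 22 were listed and 16 had a mean of at least 1 CPM. Nt5e (CD73), which makes adenosine from AMP, was at 17.2 to 29.8 CPM, and Entpd1 (CD39), which supplies that AMP, at 25.5 to 39.8 CPM. The uptake transporter Slc29a1 was at 21.4 to 29.5 CPM and adenosine kinase, Adk, at 16.3 to 22.7 CPM. Enpp2, an enzyme better known for making lysophosphatidic acid, had the most reads in this list, at 623 to 944 CPM. Of the 16 genes tested 7 had estimates above 0 and 9 below, and those with an unadjusted p under 0.05 were Slc28a3, a nucleoside transporter, at -1.05 ± 0.43 (log2, SE) and Acpp, an acid phosphatase that can form adenosine, at -0.94 ± 0.37 (limma adjusted p = 0.9998 for each). Markers of the surface epithelium of the eye, 7 genes led by Aldh3a1 and Krt15, ranged from 268 to 854 CPM on the left and from 111 to 652 CPM on the right. The left eye of animal 66 was the highest library for that sum, for Slc28a3 and for Acpp. The part of surface epithelium in these values was not tested.

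Downstream, the stimulatory G protein gene Gnas was at 202 to 263 CPM and the beta subunit gene Gnb1 at 111 to 230 CPM, and the most read adenylyl cyclase genes were Adcy6 (43.5 to 48.9 CPM) and Adcy1 (19.2 to 50.9 CPM). Gnb1 and Adcy1 were both highest in the right eye of animal 68, as was Rgs9, a regulator of G protein signalling known from photoreceptors and striatum, at 47.6 to 76.5 CPM. Rgs9 had an unadjusted p under 0.05 with an estimate of 0.23 ± 0.09 (log2, SE, limma adjusted p = 0.9998), and so had Pde1a, a calcium-dependent phosphodiesterase, at -0.40 ± 0.16. Arrb1, a beta-arrestin, was at 49.5 to 67.2 CPM, Pde1c, another phosphodiesterase, at a mean of 87.4 CPM, and Prkar1a, a regulatory subunit of protein kinase A, at 57.3 to 69.0 CPM. In all, 16 of the 94 listed genes of the 6 lists (17.0%) were at their highest in the right eye of animal 68, beside 3456 of all 26360 genes (13.1%).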

How the data were processed

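The authors deposited normalized values in CPM, to each of which 1e-04 had been added, and this was taken off again. The unit was read from the values, since 88.9% to 89.8% of low values (0.5 to 20 steps) in each library were whole multiples of 1 step within a tolerance of 0.05. Implied reads are therefore approximate. Per the submitters' processing notes STAR, Partek and GRCm38 (mm10) were used, and their versions, the annotation release and the strand setting were not given in the sources used here. Per the labels, RNA was depleted of ribosomal RNA and made into stranded libraries. Listed genes held 42.7% to 47.1% of the CPM total, and CPM is relative, so a class that takes a larger share lowers the others. Intervals and the floor of 3 reads cover counting error only where they rest on reads.

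Tests ran on log2(CPM + 0.230) in limma 3.58.1 (R 4.3.3, intensity trend, 4 residual degrees of freedom, Benjamini-Hochberg adjustment). Exon lengths are unions of GENCODE M21 exons (GRCm38), gene ends are 1 base before the deposited stop. The animal was a block because the titles give fellow eyes of 1 animal the same number. The correlation of fellow eyes' deviations was -0.19 to 0.27, over 0.1 in 2 of 5 animals. No library was a copy of another: over 45 pairs, chi-square divided by its degrees of freedom was 12.2 to 63.8. The limma fit was tested on simulated data, with changes set only in genes of higher mean than every receptor gene but Adora1 and Adora2b. The test therefore does not cover the other receptor genes. Figures were drawn with matplotlib 3.10.9.

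The members and lists were chosen with earlier results of these data known. Named genes were the receptor genes, the 2 genes of each list with the highest mean and those past the threshold, and the 3 genes most like each receptor gene with a mean of at least 1 CPM. Others were named after their values were seen: genes of synthesis, uptake and breakdown for their role, and those with an unadjusted p under 0.05. Some genes that this rule names are not reported here.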

Additional observations from a re-analysis of the deposited data

Results flagged for a closer look

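Among 18 groups of 5 libraries (9 receptor genes, left and right eyes), 3 had a library farther from the rest than Dixon's 95% limit (0.71 of the group's range). That limit gives about 1 in 20 groups such a library only for independent, normally distributed values. Some of these CPM are near 0 and the 3 groups share 1 library, so that rate does not apply here. All 3 were the right eye of animal 68 against the other right eyes, at 6.41 CPM of Drd4, 0.796 CPM of Drd2 and 0.149 CPM of Drd5. The next highest right eye, that of animal 64 for Drd4 and Drd2, held 1.60 and 0.221 CPM, and for Drd5 it was that of animal 65, with 0.0120 CPM. The rod genes summed to 1870 CPM in that library and to 132 to 583 CPM in the other right eyes. Their part in the 3 values was not tested.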

How the results depend on the processing

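In limma 0 genes differed between right and left eyes in each of the 16 alternatives, and the replicate block of fellow eyes changed no call (0 genes with no replicate block). For the 9 receptor genes, 123 of 137 alternative values of the right minus left difference did not turn direction and missed the threshold as before. All 119 alternatives of their animal differences missed it. The 123 include rounded differences of 0, for Drd2 with a pseudocount of 0.1 CPM and for Drd4 with the inner retinal neuron covariate. The direction turned, with no call, in the other 14. For Drd4 (-0.06 as reported) it was 0.05 with a pseudocount of 1 CPM, and leaving out animals gave -0.77 to 0.35. For Drd1 (0.04) leaving out animals gave -0.29 to 0.31, for Drd2 (0.08) -0.21 to 0.25 and for Drd5 (0.11) -0.04 to 0.18. Chosen after seeing the data, leaving out the right eye of animal 68 gave -0.29 for Drd1, -0.21 for Drd2 and -0.04 for Drd5. With the replicate block these must equal the values without animal 68, yet both are counted in the 137 and the 14. With no replicate block as well, Drd1, Drd2 and Drd5 were at -0.27, -0.27 and -0.03. The 13 genes that differed between animals became 5 to 11 when an animal was left out, which also leaves fewer samples (5 without animal 61, 8 without 64, 6 without 68). They became 7 with no intensity trend and 7 when the right eye of animal 68 was left out, where the cause was not tested. Depth limits Drd3, Drd5 and Adora3, which rest on 23, 18 and 88 reads over all libraries. It also limits Drd2, with 160 reads, 75 of them in the right eye of animal 68. With 5 animals and 4 residual degrees of freedom, the interval of Drd4 includes 2-fold changes in both directions.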
